A study of Rattus norvegicus with 24 samples.

Results

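INS-1 cells, which come from an insulinoma of the rat, secrete insulin and often stand in for beta cells of the islet, were compared after 1 h with GLP-1 and after 1 h with the DMSO vehicle. The comparison took every library labelled GLP-1 1h and Control 1h, 4 of each, and so 8 of the 24 libraries of the study, and described all 12715 genes whose mean normalised count over these libraries was at least 10. The agents of the study were GLP-1 at 100 nM, BMS-21 (a compound known here by its code only) at 1 µM and DMSO, and each was given for 1 h or 6 h to 4 replicate libraries. All groups carried the same preparation: 90 min in 3 mM glucose, then 11 mM glucose together with the agent, so that GLP-1 was tested on top of a step in glucose that the Control cells received as well. Libraries were paired by replicate number. INS-1 is a single tumour line, and the labels do not say that replicates came from separate cultures, so the p-values measure the spread between these libraries only.

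GLP-1 is a gut hormone released after meals. Its receptor, coupled to the stimulatory G protein, switches on adenylyl cyclase, and the cAMP that follows acts through protein kinase A (PKA) and the EPAC exchange factors to raise glucose-stimulated insulin secretion. PKA phosphorylates the transcription factor CREB, which binds the cAMP response element (CRE) in promoters, and many CREB targets are immediate early genes, transcribed without new protein synthesis. Several of those targets act back on the pathway, among them kinases that restrain the CREB coactivators, phosphodiesterases that break down cAMP and regulators of G-protein signalling.

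The 8 libraries held 11442715 to 12814387 reads in genes, and 15956 to 16223 genes had at least 1 read. The floor used here, 3 reads for a gene, was equal to 0.234 to 0.262 RPM (RPM scales reads by the total of the library), for counting error only. Of 12 beta-cell markers 11 were matched, and all of these were measured, with Ins1 between 108762 and 116719 normalised counts. Of 24 markers of alpha, delta, PP, acinar, duct, stromal, endothelial and white blood cells, 8 had no read in any of the 8 libraries and 4 reached a mean of 10, and their summed level was 1009 to 1186 in Control and 1085 to 1283 with GLP-1, most of it Krt7. Defining genes of the other endocrine cells (Sst, Irx2) were at 0, and Gcg lay between 78.4 and 101 normalised counts. In RNA of whole cultures fewer cells of a type and less RNA per cell cannot be told apart.

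The promoter sequences of 5 induced genes are shown because a sequence more frequent among genes that rose is one result of the comparison. Each is the RefSeq window from 250 bases before to 50 bases after the annotated start (build GRCr8), 5′ to 3′ in the direction of transcription. Capitals mark the full CRE, TGACGTCA, or, in the 2 promoters without one, the short CRE, TGACG or its reverse complement CGTCA. Btg2 (chr13:48087641-48087940, minus strand) has a full CRE whose first base is 201 bases before the start, Plk2 (chr2:43702286-43702585, plus strand) has one at 66 bases and Dusp1 (chr10:17184603-17184902, plus strand) has one at 124 bases. Nr4a1 (chr7:134259888-134260187, plus strand) has 4 short CREs and Sik1 (chr20:9958597-9958896, minus strand) has 2. All 5 windows shown hold a site, whereas those of Fosb, Fosl2, Klf4, Tiparp and Per1, which rose as well, hold neither form.
Btg2: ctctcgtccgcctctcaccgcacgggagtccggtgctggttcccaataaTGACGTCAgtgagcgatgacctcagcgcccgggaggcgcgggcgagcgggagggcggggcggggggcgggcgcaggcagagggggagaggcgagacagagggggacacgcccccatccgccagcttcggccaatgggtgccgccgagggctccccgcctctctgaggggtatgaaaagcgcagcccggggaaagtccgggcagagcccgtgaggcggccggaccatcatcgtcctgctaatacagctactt
Plk2: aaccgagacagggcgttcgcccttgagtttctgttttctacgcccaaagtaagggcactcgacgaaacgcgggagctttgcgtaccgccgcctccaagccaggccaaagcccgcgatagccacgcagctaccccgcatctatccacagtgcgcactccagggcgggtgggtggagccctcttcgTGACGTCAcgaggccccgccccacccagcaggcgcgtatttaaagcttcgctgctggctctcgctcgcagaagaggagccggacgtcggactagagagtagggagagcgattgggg
Dusp1: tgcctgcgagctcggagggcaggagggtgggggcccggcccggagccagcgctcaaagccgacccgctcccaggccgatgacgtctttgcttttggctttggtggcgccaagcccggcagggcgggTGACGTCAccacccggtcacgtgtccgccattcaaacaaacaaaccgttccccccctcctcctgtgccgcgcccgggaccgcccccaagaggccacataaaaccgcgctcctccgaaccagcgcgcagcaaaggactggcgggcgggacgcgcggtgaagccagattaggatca
Nr4a1: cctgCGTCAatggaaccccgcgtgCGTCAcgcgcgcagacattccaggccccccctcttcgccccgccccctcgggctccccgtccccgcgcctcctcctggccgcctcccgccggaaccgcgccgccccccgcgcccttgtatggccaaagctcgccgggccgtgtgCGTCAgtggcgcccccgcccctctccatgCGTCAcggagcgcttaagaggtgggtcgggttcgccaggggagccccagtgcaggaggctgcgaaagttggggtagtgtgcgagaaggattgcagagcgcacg
Sik1: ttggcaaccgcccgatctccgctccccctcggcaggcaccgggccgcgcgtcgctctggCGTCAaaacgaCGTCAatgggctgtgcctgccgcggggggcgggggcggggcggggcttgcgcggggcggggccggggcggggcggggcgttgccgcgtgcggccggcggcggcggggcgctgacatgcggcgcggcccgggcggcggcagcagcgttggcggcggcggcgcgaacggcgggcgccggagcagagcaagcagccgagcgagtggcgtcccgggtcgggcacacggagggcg

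After 1 h of GLP-1, 1513 of the 12715 genes differed from Control (limma with the replicate number as a block, Benjamini-Hochberg adjusted p under 0.05 over all genes), or 11.9%. Of these, 857 (6.74%) were higher and 656 (5.16%) were lower. The large changes were increases: 32 genes rose at least 4-fold and none fell that far, 102 (0.802%) rose at least 2-fold and 13 (0.102%) fell at least 2-fold. Most calls were small, since 648 of the higher and 580 of the lower genes moved by less than 1.5-fold, and the median log2 fold change was 0.25 among the higher and -0.23 among the lower genes. The difference had the same sign in all 4 replicate pairs for 809 higher and 604 lower genes, and the groups did not overlap for 606 and 404 of them (over all genes tested, 6.02% were higher and 4.84% lower without overlap). The calls depended on pairing: without the block 837 genes were called, 530 higher and 307 lower, and 835 of these were among the 1513. On simulated counts the share of false calls with the block was above the nominal level. These counts were a single draw with a simpler replicate structure, so that share need not hold for the real libraries. The split depended on scaling: by library totals, in place of the authors' size factors, 628 genes were higher and 1171 lower.

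**Figure D1:**
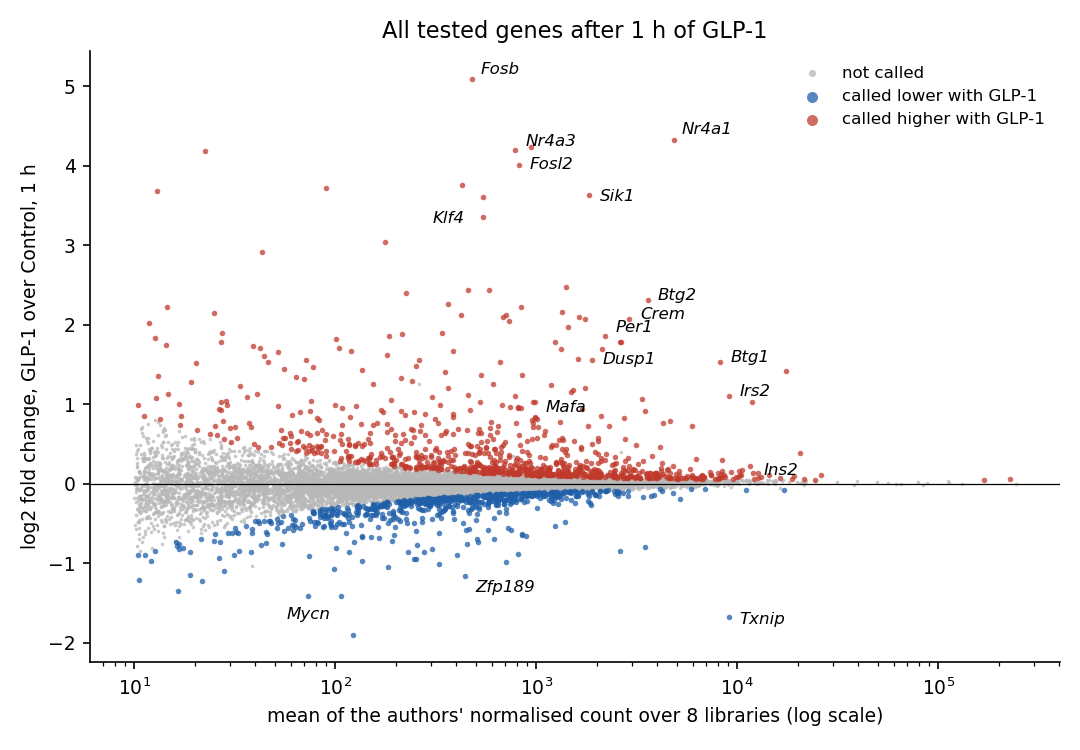
Each point is 1 of 12715 genes, with the mean of the authors' normalised count over 8 libraries on a log axis and the fitted log2 fold change of GLP-1 over Control at 1 h on the vertical axis. Red points are the 857 genes called higher and blue points the 656 called lower, and the points above 2 on the vertical axis have no counterpart below -2.

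The 3 nuclear receptors of the NR4A family, which act without a known hormone ligand and are early targets of cAMP signalling, rose about equally. Nr4a1 (ENSRNOG00000007607) had 457, 451, 452 and 472 normalised counts in Control libraries 1 to 4 and 9288, 8937, 9456 and 9098 with GLP-1. The lowest GLP-1 library was far above the highest Control library, and the 4 libraries of each group lay close together. Absence of overlap was a condition for naming a gene among the 12 largest increases or decreases. For such genes, Nr4a1 included, it is no added support. The fitted log2 fold change was 4.32 ± 0.03 (standard error, n = 4 pairs, as in all that follows; limma adjusted p = 1.83e-106), or 20.0-fold. Nr4a2 rose 18.8-fold (log2 4.24 ± 0.06) and Nr4a3 rose 18.4-fold (log2 4.20 ± 0.06). Of 18 tested genes in the list of NR4A, EGR and IER immediate early genes, 14 rose and 2 fell. That was 88.9% called, beside 11.9% over all genes tested (6.74% higher, 5.16% lower). Egr1, a zinc finger activator, went from 527 to 683 normalised counts in Control to 2014 to 2770 with GLP-1, a rise of 3.93-fold, while Arc, best known as a synaptic gene, rose by 0.69 on the log2 scale. Ier5 (-0.66 ± 0.09) and Csrnp2 (-0.33 ± 0.07) were the members that fell, and the call of Csrnp2 was lost with DESeq2. The call of Egr1 was lost in replicates 3 and 4 alone.

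AP-1, a dimer of FOS, JUN, ATF or MAF proteins, changed in most of its subunits. Of 23 tested members of the AP-1, MAF and ATF list (C/EBP relatives included), 15 rose and 1 fell. The share called was 69.6%, beside 11.9% over all genes tested. Fosb (ENSRNOG00000046667) had 26.3, 23.3, 26.1 and 29.99 normalised counts in Control and 921, 987, 913 and 916 with GLP-1, the largest change of all (log2 5.10 ± 0.08, limma adjusted p = 3.41e-72). The groups were separated by a wide gap, with 29.99 as the top of one and 913 as the bottom of the other. Fosl2 rose 16.1-fold, Fos 13.5-fold and Junb 5.55-fold. Their groups did not overlap either, which was a condition for naming them and Fosb among the largest increases. Within the FOS family the order by log2 fold change was Fosb 5.10, Fosl2 4.01, Fos 3.75 and Fosl1 2.92. Fosl1 was at a low level, with means of 9.8 normalised counts in Control and 76.7 with GLP-1. It thus passed the filter of 10 through its GLP-1 libraries. The JUN genes moved less, with 2.47 for Junb, 1.07 for Jund and 0.52 for Jun. The small MAF genes showed a similar range on that scale, from 1.89 for Maff to 0.31 for Mafk and 0.16 for Mafg.

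**Figure D2:**
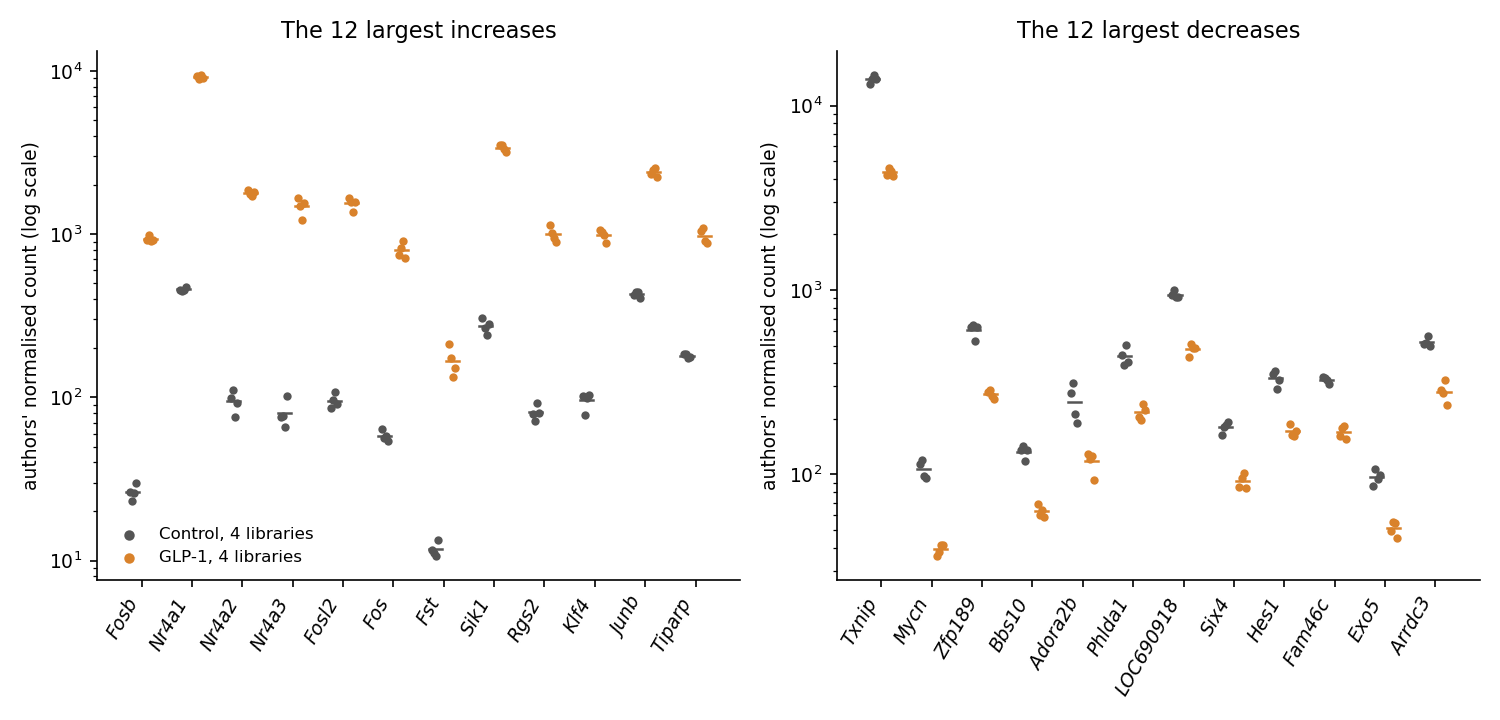
Points are the normalised counts of single libraries (log axes) for the 12 largest increases (left) and the 12 largest decreases (right) among genes that passed the test and the level and overlap limits for naming, and short bars are group means. Grey is Control and orange is GLP-1, 4 libraries each. The groups of Fosb and Nr4a1 are separated by more than 10-fold and those of Junb and Tiparp by less, while the decreases, Txnip first, are of 1.9 to 3.2-fold.

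Several genes that restrain cAMP and G-protein signalling rose. Sik1 (ENSRNOG00000001189), a kinase that keeps CREB coactivators out of the nucleus, had 306, 266, 240 and 280 normalised counts in Control and 3531, 3492, 3333 and 3204 with GLP-1 (log2 3.63 ± 0.04, limma adjusted p = 6.32e-78). Crem, whose locus also encodes the inducible repressor ICER, had 1052, 1048, 1123 and 1209 in Control and 5180, 4894, 3784 and 4983 with GLP-1 (log2 2.08 ± 0.12, limma adjusted p = 0.00361). In both genes every GLP-1 library was above every Control library, which for Sik1 was a condition of its naming among the largest increases. GLP-1 replicate 3 was the lowest of its group for Crem. Counts per gene do not separate ICER from the other Crem transcripts. Of 14 tested genes of the CREB, coactivator and SIK list these 2 and Creb3 rose and none fell (21.4% called, beside 11.9% over all genes). Creb3 rose by only 0.14, and its adjusted p was 0.124 without the block. Its call was also lost with DESeq2, with library totals and without replicate 1 or 4. Scaled by library totals, 2 genes of the list were higher and 1 lower. The call of Crem was lost in replicates 3 and 4 alone.

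Among regulators of G proteins, 7 of 24 tested genes rose and none fell (29.2% called, beside 11.9% over all genes tested). Rgs2, which speeds up the switching off of G-protein alpha subunits, had 78.8, 72.0, 92.0 and 80.7 normalised counts in Control and 1141, 1020, 950 and 891 with GLP-1, or 12.2-fold more. The small GTPases Rasd1 (4.46-fold) and Gem (4.29-fold, an inhibitor of voltage-gated calcium channels) rose as well, and none of the 3 overlapped between groups. For Rgs2 that was a condition of its naming among the largest increases. Rasd1 and Gem were named by adjusted p in the same libraries, so it is no added support for them either. Of all genes tested, 6.02% were higher without overlap. Of 16 tested phosphodiesterases 3 rose, all of the cAMP-specific PDE4 group, and 1 fell (25% called). Pde4d rose 1.58-fold, Pde4b 1.56-fold and Pde4a 1.40-fold. Pde4b was at a low level, 35.8 to 56.8 normalised counts in Control and 59.1 to 88.0 with GLP-1, and its call was lost with DESeq2. The call of Pde4a was lost with DESeq2 as well, and without replicate 2, where the log2 fold change was 0.35 (limma adjusted p = 0.112). Pde10a (-0.09 ± 0.03) fell slightly, with an adjusted p of 0.338 without the block, and its call was lost without replicate 1, 3 or 4.

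Of 22 tested genes for adenylyl cyclases, PKA subunits and anchors, and EPAC, 2 rose and 3 fell, or 22.7% called beside 11.9% over all genes tested. Scaled by library totals, 2 were higher and 5 lower. The anchoring protein Akap12 rose 1.38-fold and the regulatory PKA subunit Prkar1a rose 1.10-fold. The catalytic subunit Prkacb, the PKA inhibitor Pkia and the anchor Akap1 fell, by 0.15, 0.13 and 0.11 on the log2 scale, and the last 2 were not called without the block. The lowest value of the list, -0.75 ± 0.27 for the anchor Akap5, came with a limma adjusted p of 0.0576 at means of 17.2 and 10.2 normalised counts. The GLP-1 receptor gene itself, Glp1r, had 1720 to 1861 normalised counts in Control and 1689 to 1853 with GLP-1 (log2 -0.04 ± 0.03, limma adjusted p = 0.548), so a change was not detected. Among the 7 tested receptors of the glucagon family, Gcgr, the glucagon receptor, was the 1 called, at -0.09 ± 0.02, and its adjusted p without the block was 0.165. That call was also lost with DESeq2 and without replicate 2. Scaled by library totals, 2 of the 7 receptors were lower.

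Phosphatases and inhibitors of MAP kinase signalling moved in both directions, 7 of 21 tested genes up and 3 down. The share called was 47.6%, beside 11.9% over all genes tested. Dusp1, a nuclear phosphatase for MAP kinases, rose from 917 to 1015 normalised counts to 2550 to 3005 (2.93-fold), and Dusp10, which acts on the stress-activated kinases, rose 2.65-fold. Dusp7, Dusp14 and Spry2 fell, by 0.67, 0.48 and 0.46 on the log2 scale. The groups did not overlap for any of these 5 genes. They were named by their calls in the same libraries, so this is no added support. Over all genes tested, 6.02% were higher and 4.84% lower without overlap. The call of Dusp14 was lost with DESeq2 and without replicate 3 or 4, where the limma adjusted p reached 0.186.

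Other transcription regulators split by family. In the Kruppel-like factor list 2 of 16 tested genes rose and 6 fell (50% called, beside 11.9% over all genes tested). Scaled by library totals, 2 were higher and 9 lower. Klf4 had 102, 78.1, 99.7 and 103 normalised counts in Control and 1054, 1037, 988 and 878 with GLP-1, a rise of 10.3-fold, and Klf13 rose by 0.58 on the log2 scale, a call lost with DESeq2. The members that fell were Klf5 (-0.86), Klf10 (-0.85), Klf6 (-0.71), Klf11 (-0.69), Klf3 (-0.62) and Klf2 (-0.55). Klf10 and Klf11 are known as targets of TGF-beta, and Klf10 was the most abundant of the 6, at 3251 to 3429 in Control and 1808 to 1937 with GLP-1. The list of helix-loop-helix factors was split as well, with 5 of 25 up and 6 down (44% called), or 5 higher and 9 lower by library totals. Among those that rose were the inhibitors Id4, at 3.44-fold, and Id2, at 0.68 on the log2 scale. Mycn fell 2.67-fold, from 95.1 to 120 normalised counts to 36.1 to 41.4, Hes1, a repressor downstream of Notch, fell 1.93-fold, and Bhlhe40, a repressor of the clock, fell 1.73-fold.

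In the activin, TGF-beta and BMP list 8 of 32 tested genes rose and 4 fell (37.5% called, beside 11.9% over all genes). Scaled by library totals, 8 were higher and 7 lower. Fst encodes follistatin, a secreted protein that binds activins. Its normalised counts were 11.7, 11.2, 10.6 and 13.4 in Control and 213, 175, 134 and 151 with GLP-1 (log2 3.72 ± 0.15, 13.1-fold, limma adjusted p = 1.86e-39). Control libraries were thus near the filter on low counts, and all GLP-1 libraries were above 130. The ligand Bmp2 rose 2.52-fold, the SMAD corepressors Tgif2 and Skil rose by 1.35 and 0.99 on the log2 scale, and the activin subunit Inhba rose by 0.99 at a low level (means of 18.9 and 38.8 normalised counts). The inhibitor Bambi fell by 0.73. Smad7, the feedback inhibitor of TGF-beta receptors, fell by 0.70 within pairs, but its Control libraries ranged from 588 to 1020 and overlapped the GLP-1 range of 370 to 620 (adjusted p without the block 0.185).

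The alpha-arrestins and targets of the glucose-responsive factor ChREBP held 1 gene that rose and 8 that fell among 17 tested. That was 52.9% called, beside 11.9% over all genes tested. The median log2 fold change was -0.07, and 6 of the 17 were called without the block. Txnip (ENSRNOG00000021201), which binds thioredoxin and lowers glucose uptake, had 13018, 13940, 14675 and 13970 normalised counts in Control and 4205, 4576, 4433 and 4152 with GLP-1. That was a fall by 1.68 on the log2 scale (standard error 0.02, limma adjusted p = 1.44e-77), or 3.20-fold, and the largest decrease among genes named by the rule. Its relatives Arrdc3 (-0.90), Arrdc4 (-0.66) and Arrdc2 (-0.52) fell too. The enzymes of the list moved little, Gpd1 by -0.19, Pklr by -0.15 and Fasn by -0.11, and the factor itself, Mlxipl, by -0.07. The calls of Gpd1, Pklr and Mlxipl were lost without the block. Rgs16, which is in this list and in the G-protein list, rose 1.75-fold.

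**Figure D3:**
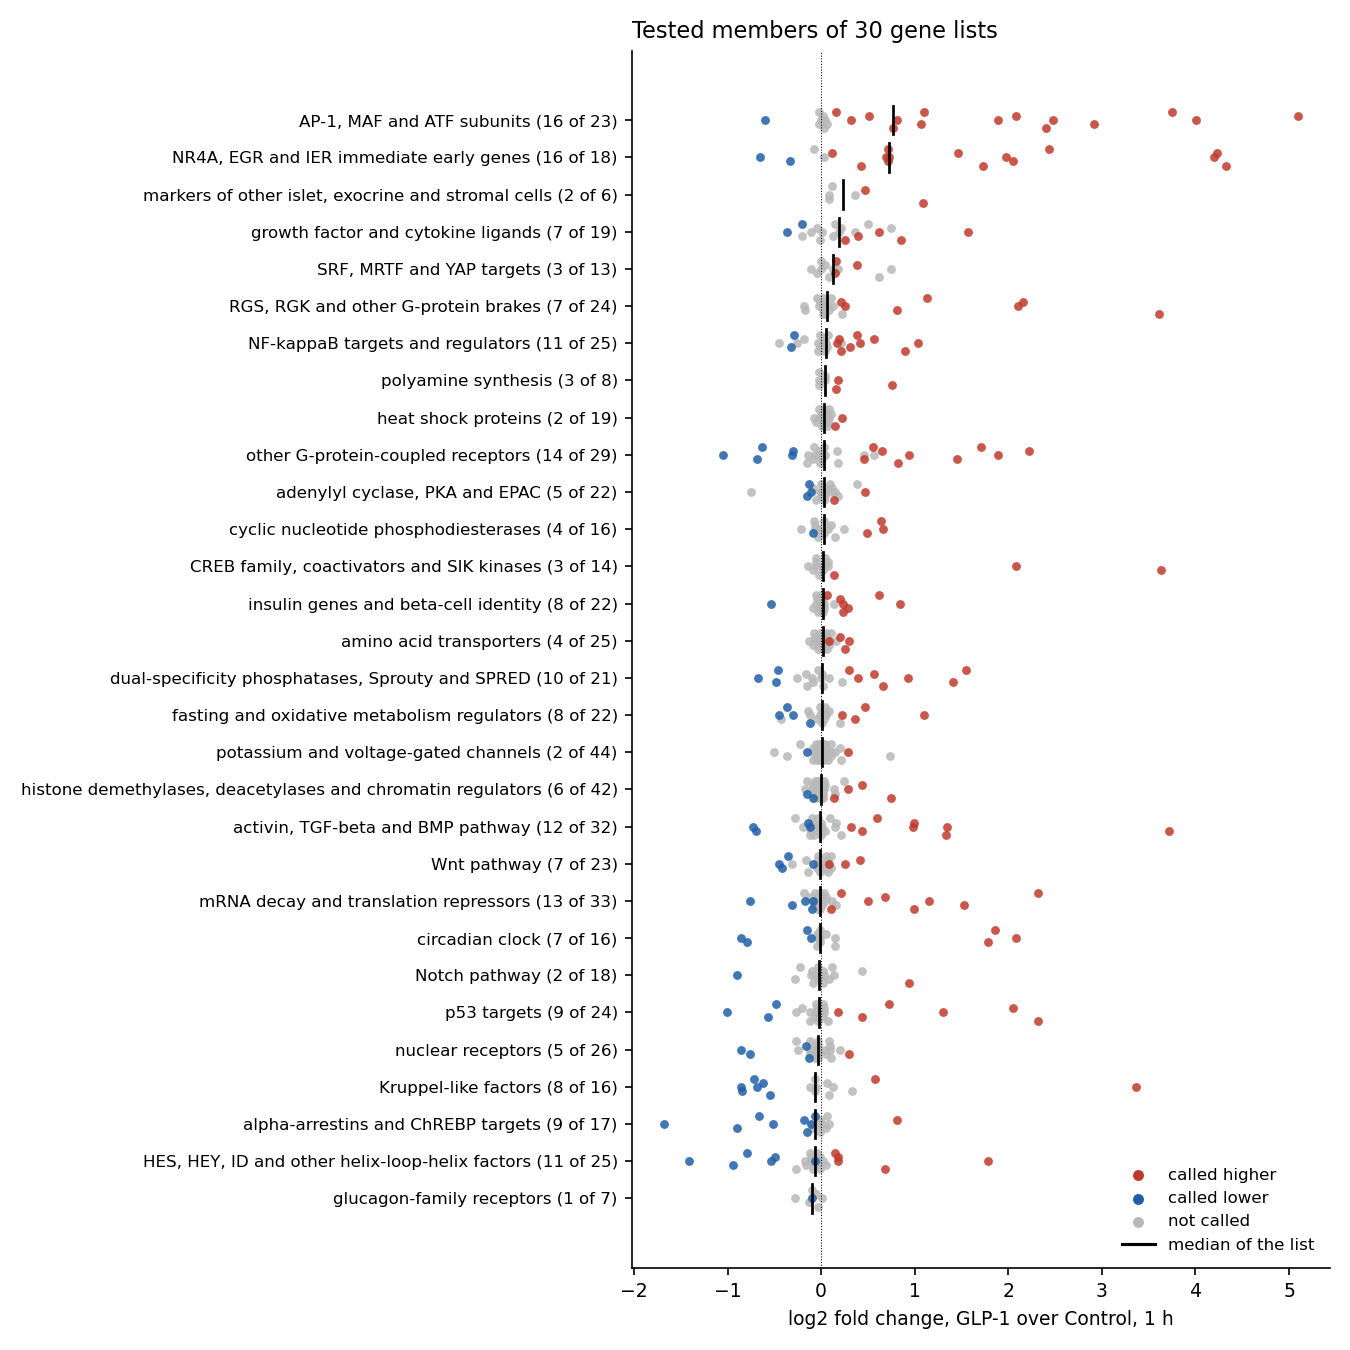
Each row is 1 of 30 gene lists and each point 1 tested member, placed by its log2 fold change of GLP-1 over Control at 1 h, with red for called higher, blue for called lower, grey for not called and a black bar at the median of the list. Numbers beside the names give called and tested members. AP-1 (16 of 23) and the immediate early genes (16 of 18) lie mostly to the right, and the alpha-arrestin list (9 of 17) mostly to the left.

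Factors that control mRNA stability were a further mixed list, with 8 of 33 tested genes up and 5 down. The share called was 39.4%, beside 11.9% over all genes tested. Btg2, which recruits the enzymes that shorten poly(A) tails, rose from 1027 to 1350 normalised counts to 5487 to 6263 (4.98-fold). Btg1 rose by 1.53 and Tob1, of the same family, by 1.16 on the log2 scale. Zfp36, tristetraprolin, which binds AU-rich elements of early mRNAs, fell from 296 to 355 to 171 to 196 (log2 -0.76 ± 0.07). In the clock list 3 of 16 tested genes rose and 4 fell (43.8% called). Per1 rose 3.61-fold, Nfil3 4.22-fold and Cry2 3.44-fold, while Nr1d1 (REV-ERB alpha), a repressor of clock genes, fell 1.81-fold. Among p53 targets 6 of 24 rose and 3 fell (37.5% called). Plk2 rose 4.15-fold and Gadd45b 2.46-fold, Phlda1 fell 2.00-fold and Gadd45a fell by 0.57 on the log2 scale. Scaled by library totals, 6 of the p53 targets were higher and 6 lower.

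Receptors other than those for glucagon-like peptides included 9 that rose and 5 that fell among 29 tested. The share called was 48.3%, beside 11.9% over all genes tested. Those that rose included the somatostatin receptors Sstr1 (3.71-fold) and Sstr2 (0.65 on the log2 scale) and the adrenaline receptor Adra2a (1.77-fold), all of which couple to the inhibitory G protein, and Gpr6 (1.92-fold). Adora2b, an adenosine receptor that stimulates adenylyl cyclase, fell 2.07-fold, from 190 to 312 normalised counts to 93.9 to 129, and Ffar1, the long-chain fatty acid receptor of beta cells, fell by 0.68. Another somatostatin receptor, Sstr3, fell by 0.31.

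The insulin genes were not called, while several transcription factors of beta cells were. Ins1 (108923 to 114934 normalised counts in Control, 108762 to 116719 with GLP-1) and Ins2 had limma adjusted p of 0.262 and 0.793, and reads of these near-identical paralogs cannot be assigned with certainty. Without replicate 4 Ins2 was called lower, at -0.12 on the log2 scale (limma adjusted p = 0.000153). Of 22 tested genes of the beta-cell list 7 rose and 1 fell (36.4% called, beside 11.9% over all genes tested). Mafa, an activator of insulin transcription, rose 1.80-fold, from 675 to 723 normalised counts to 1143 to 1443, Nkx2-2 rose 1.53-fold and Pdx1, a master regulator of the pancreas, rose 1.18-fold. None of the 3 overlapped between groups, which was so for 606 of the 857 genes called higher and is no added support. Of all genes tested, 6.02% were higher without overlap. Neurod1, another activator of the insulin gene, fell 1.45-fold, from 1370 to 1514 to 955 to 1156. Irs2, the adaptor of insulin receptor signalling in beta cells, rose from 5522 to 5997 to 12080 to 12720 (2.14-fold, limma adjusted p = 1.08e-67), and Foxo1 fell 1.29-fold. Among secreted factors Hbegf rose 2.96-fold, Stc1 1.80-fold and Vegfa, already at 17161 to 18959 in Control, 1.31-fold. Odc1, the first enzyme of polyamine synthesis, rose 1.69-fold and the amino acid transporter Slc7a5 rose 1.23-fold.

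Of 44 tested potassium and voltage-gated channels 1 rose and 1 fell, of 18 Notch genes 1 rose and 1 fell, of 42 chromatin regulators 4 rose and 2 fell (4 and 5 when scaled by library totals), and of 19 heat shock genes 2 rose and none fell. Channels were thus called in 4.55% of cases (1 higher and 4 lower by library totals), Notch genes in 11.1%, chromatin regulators in 14.3% and heat shock genes in 10.5%. The share over all genes tested was 11.9%. Of 6 tested markers of other cell types Sox9 (a factor of duct and progenitor cells, 2.13-fold) and Kdr rose. Sox9 had 28.2, 14.2, 32.9 and 17.6 normalised counts in Control and 53.1, 49.0, 66.3 and 30.3 with GLP-1, so that the groups overlapped, and its call was lost in replicates 3 and 4 alone. Kdr also overlapped between groups, had an adjusted p of 0.144 without the block and reversed to -0.08 in replicates 3 and 4 alone. The 5 most abundant called genes (Chgb, Hspa5, Hsp90b1, Cd164 and a gene listed without a symbol) rose by at most 1.08-fold, overlapped between groups and were not called without the block.

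The CRE was more frequent in promoters of genes that rose. RefSeq promoter windows were matched by symbol for 8998 of the 12715 genes, and the 8452 with 1 window were searched on both strands. The full site TGACGTCA was in 3.37% of all tested promoters (285 of 8452), in 8.76% of those of genes that rose (51 of 582), in 14.7% of those that rose at least 2-fold (10 of 68) and in 2.42% of those that fell (11 of 455). The short CRE TGACG, which the full site contains, was in 32.8% of all, 52.6% of genes that rose and 24.6% of genes that fell. For other motifs the shares on the same split were as follows: the E-box CACGTG was in 9.76% of all, 10.7% of risers and 10.5% of fallers, the CCAAT box in 37.4%, 37.8% and 39.8%, and the AP-1 site TGANTCA in 4.34%, 4.81% and 4.40%. In genes that fell at least 1.5-fold the CCAAT box was in 53.3% (24 of 45). A match of TGANTCA can share its end letters with a short CRE, but neither contains the other.

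Level and base composition, which move with a CpG-containing motif, were compared beside it. The median GC content of the windows was 61.7% over all genes, 63.0% for genes that rose and 62.3% for genes that fell, and the median number of CpG dinucleotides was 22, 23 and 22. Among promoters with at least 25 CpGs the short CRE was in 39.4% of all, 61.1% of risers and 30.7% of fallers, and among those with at most 14 CpGs in 19.8%, 33.9% and 16.1%. Among genes with a mean of at least 1000 normalised counts it was in 39.6%, 56.2% and 32.8%, among those with 100 to 1000 in 33.3%, 53.2% and 24.3%, and among those with 10 to 100 in 23.5%, 34.4% and 17.7%. The full site followed another order in the lowest of these ranges, with 4.92% of risers (3 of 61) and 6.45% of fallers (4 of 62). These shares describe letters in a window and not binding, and no test was made of them. The 10 genes that rose at least 2-fold with a full site were Btg2, Lrrtm2, Plk2, Maff, Ier2, Dusp1, Arl5b, Tgif2, Slc25a25 and Jund. Of these, Ier2, Lrrtm2 and Tgif2 were at a low level, with means of 39.1, 24.8 and 13.1 normalised counts over the 8 libraries. The largest changes were not all among them: Nr4a1 and Sik1 have short CREs alone in the window, and Fosb, Fosl2 and Per1 have neither.

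A microRNA locus was among the strongest relative increases, and it is given although its level fell below the rule for named genes and it was chosen after its values were seen. Mir132 and Mir212 lie next to each other, and their mature 3p products share the seed (bases 2 to 8, in capitals), the part that pairs with target mRNAs.
rno-miR-132-3p: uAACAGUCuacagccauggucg
rno-miR-212-3p: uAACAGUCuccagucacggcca

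Reads assigned to the Mir132 entry were 1, 1, 1 and 1 in Control and 27, 20, 23 and 30 with GLP-1, and those assigned to Mir212 were 1, 1, 2 and 2 and then 17, 12, 18 and 15. Every GLP-1 library was above every Control library at both entries. The locus was chosen by these same values, so neither this separation nor the intervals that follow are added support. Per library total the ratio was 24.5 for Mir132 (exact 95% interval 9.26 to 91.5) and 10.1 for Mir212 (4.39 to 28.6), for counting error only. In libraries of 6 h the sums were 10 and 5 reads for Mir132 and 6 and 6 for Mir212. The library kit named in the labels selects polyadenylated RNA and does not mark the strand, so these are reads over the locus, on either strand, and not mature microRNA.

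The same agent and vehicle after 6 h, in 8 separate libraries, show how the genes called at 1 h stood later. At 6 h 5331 of 12641 genes were called, or 42.2% (21.5% higher, 20.7% lower). Of the 857 genes higher at 1 h, 846 were tested at 6 h, and 542 of these (64.1%) were higher, 70 (8.27%) were lower and 234 were not called. Of 653 lower genes 232 (35.5%) were lower, 65 (9.95%) were higher and 356 were not called. Of the 94 genes that rose at least 2-fold and were tested again, 82 were higher and none was lower at 6 h, but their median log2 fold change went from 1.64 to 0.63, and 33 were still at least 2-fold. They were chosen by their size at 1 h, which favours a smaller change at 6 h. Normalised counts of the 2 times come from separately scaled tables, and levels are therefore not set across them.

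Several of the largest rises were smaller at 6 h. Fosb went from 5.10 to 0.81 on the log2 scale, Nr4a3 from 4.20 to 0.60, Nr4a1 from 4.32 to 1.36 and Sik1 from 3.63 to 1.63. Tiparp, a mono-ADP-ribosyltransferase that rose 5.40-fold at 1 h, was at 0.05 ± 0.08 at 6 h (limma adjusted p = 0.690). Fst was nearly as high at 6 h (3.29) as at 1 h (3.72). Of the 94 genes 8 had a larger fold at 6 h, among them Asb4 (1.32 at 1 h, 3.40 at 6 h), the relaxin-family receptor Rxfp3 (1.45 and 3.12) and Ccnd1, cyclin D1 of the cell cycle (1.43 and 2.55). These 3 were chosen after their values were seen. Txnip was still lower (-1.11 at 6 h, -1.68 at 1 h), as were Mycn (-1.43 and -1.41) and Hes1 (-0.98 and -0.95), whereas Six4 and Bbs10 (-0.97 and -1.07 at 1 h) were not called at 6 h.

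**Figure D4:**
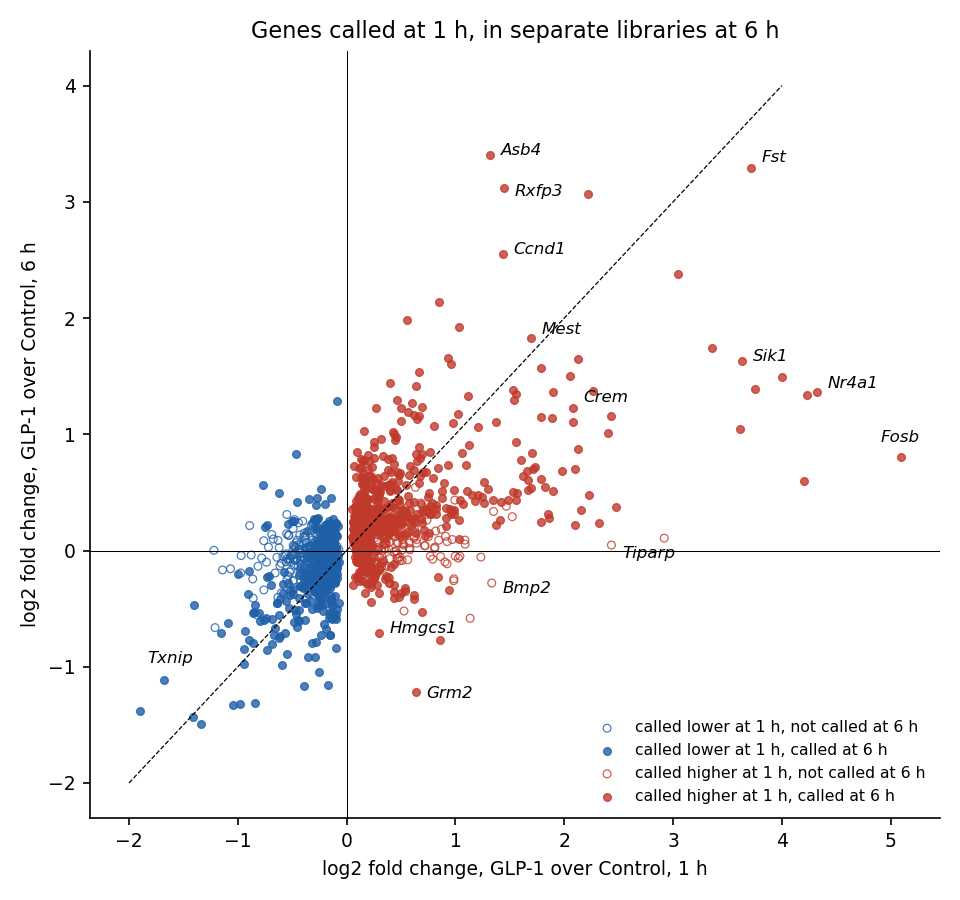
Each point is a gene called at 1 h, with its log2 fold change of GLP-1 over Control at 1 h and, in separate libraries, at 6 h. Red was called higher and blue lower at 1 h, filled points were called at 6 h and open points were not, and the dashed line marks equal change. Fosb and Nr4a1 lie far below the line, Asb4, Rxfp3 and Ccnd1 above it, and Hmgcs1 and Grm2 below 0 at 6 h.

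Cholesterol genes stood out among those that changed direction, in a textbook list of 19 tested genes that was drawn up after this had been seen and therefore carries no test. At 1 h 6 of the 19 (31.6%) rose and none fell, beside 6.74% higher and 5.16% lower over all genes tested. Insig1, which retains the cholesterol sensor in the endoplasmic reticulum, had 1595, 1588, 1704 and 1701 normalised counts in Control and 2360, 2257, 2506 and 2439 with GLP-1 (log2 0.54 ± 0.03), without overlap. Hmgcs1, an enzyme early in the pathway, rose by 0.30 ± 0.04 and Idi1 by 0.44 ± 0.07, and Cyp51 and Msmo1 rose by 0.22 and 0.24. Stard4, a carrier of cholesterol between membranes, rose by 1.53. At 6 h 15 of the 19 (78.9%) were lower, beside 20.7% of all genes tested then, and Stard4 alone was higher (0.50). Hmgcs1 was then at -0.71, Insig1 at -0.35 and Idi1 at -0.41. All 6 calls at 1 h were kept without the block. The median log2 fold change of the 19 was 0.02 at 1 h (-0.0083 when scaled by library totals) and -0.25 at 6 h, beside -0.0015 and -0.0013 over all genes tested at these times.

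**Figure D5:**
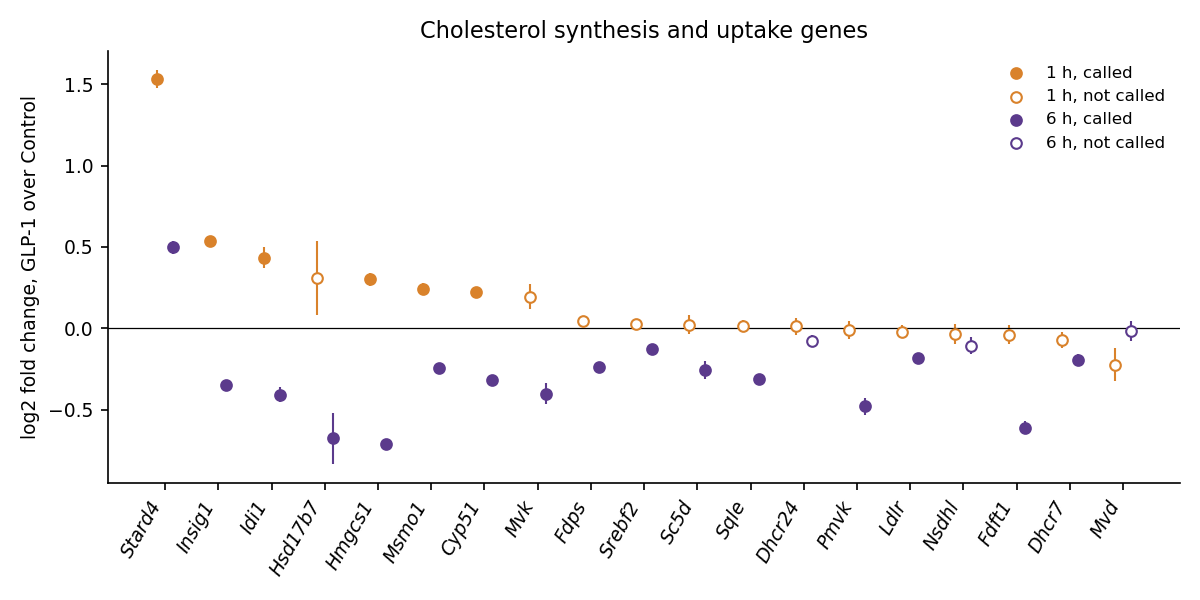
Points are the log2 fold change of GLP-1 over Control at 1 h (orange) and at 6 h (purple) of 19 genes of cholesterol synthesis and uptake, and bars are standard errors (n = 4 pairs at each time). Filled points were called. Insig1, Idi1, Hmgcs1, Msmo1 and Cyp51 lie above 0 at 1 h and below 0 at 6 h, and Stard4 lies above 0 at both.

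GLP-1 was also set against BMS-21 at 1 h, to see which of the early changes differed between the agents at these doses, 100 nM and 1 µM, which are not matched. With the block 85 of 12672 genes differed (0.671%), 57 higher (0.45%) and 28 lower (0.221%) with GLP-1, and without the block none did (limma, 432 at an unadjusted p under 0.05; DESeq2 called 4). Of the 857 genes higher with GLP-1 than with Control, 28 were higher and 8 lower with GLP-1 than with BMS-21. The same GLP-1 libraries had chosen these 857 genes, which favours the first direction, so no conclusion is drawn from that split. Both agents were compared with the same Control libraries, so their responses are given side by side only. The log2 fold change over Control was 5.10 with GLP-1 and 5.12 with BMS-21 for Fosb, 4.32 and 4.31 for Nr4a1, and -1.68 and -1.53 for Txnip. The largest of the 10 named differences were in genes of low level, Wwc2 (-0.48 ± 0.10) and Pars2 (0.46 ± 0.11). The call of Pars2 was lost whichever replicate was left out (limma adjusted p 0.0556 to 0.312), and that of Wwc2 without replicate 3 or 4 (up to 0.127). Among induced or repressed genes, Smad7 had 609, 469, 364 and 398 normalised counts with GLP-1 and 501, 389, 233 and 339 with BMS-21, higher with GLP-1 in each pair (0.36 ± 0.06, limma adjusted p = 1.95e-05). Klf4 was lower with GLP-1 in each pair (-0.21 ± 0.03).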

How the data were processed

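The authors deposited a table for each pair of groups, per the file headers, with a signal value per gene and library (the authors' normalised counts) and the authors' log2 fold change and adjusted p-value. The submitters' processing notes name the build Rnor_5.0, TopHat2 2.0.12, Bowtie2 2.2.3.0, SAMtools 0.1.19.0, Subread, DESeq and DESeq2 1.6.3, without roles; annotation and counting settings are not given in the sources used here, and the kit does not mark strand. In every library 100% of values were whole multiples of 1 step (tolerance 0.001), which gave back the reads. The table held 26404 identifiers, 18306 with a symbol and 8098 without.

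Genes whose 8-library mean reached 10 were fitted with limma 3.58.1 (trend, robust; R 4.3.3) after adding 1 to the normalised counts and taking log2, with the replicate number as a block, since libraries were to be paired by number; p-values were adjusted over all genes. The pairing was checked: after removal of group means, same-numbered GLP-1 and Control libraries of 1 h correlated across genes by 0.211, 0.268, 0.316 and 0.182. Differently numbered libraries correlated by 0.104 to 0.192 within replicates 1 and 2 or 3 and 4, and negatively across these sets. No 2 libraries of a group agreed within counting error. A log2 fold change with this pseudocount understates the change of low genes. edgeR 4.0.16 and DESeq2 1.42.0 on the recovered reads, and the change of the response between times (edgeR interaction), were alternatives or additions. Counts were also simulated in a single draw, with a small deviation shared by libraries of 1 replicate number. There the share of false calls was above the nominal level for limma (8.95%) and edgeR (10.3%) with the block. It was below that level for limma without the block (4.49%). The simulated spread was estimated from the 4 Control libraries without a block. The split of replicates 1 and 2 from 3 and 4 thus entered as independent noise. For that reason these shares need not hold for the real libraries. By the authors' deposited values 679 genes had an adjusted p under 0.05, and 671 of these were among the 1513 calls here.

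Named genes were the 12 largest increases and 12 largest decreases (called, minimum mean of 50, official symbol, groups apart), up to 3 members per list by adjusted p plus the few against their list's majority, 10 genes of the GLP-1 response, the 5 most abundant called genes and the 5 largest differences from BMS-21 in each direction. The 30 lists held 842 genes, of which 631 were tested. The comparison, lists and rule were chosen with earlier results of these data known. Other settings tried were a pseudocount of 0.5 or 5, a minimum mean of 50 or none, TMM factors, library totals, no block, each replicate left out, and replicates 1 and 2 or 3 and 4 alone. Promoters and mature microRNAs are from RefSeq (GRCr8), matched by symbol or name. Results for some genes are not reported here.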

Additional observations from a re-analysis of the deposited data

Results flagged for a closer look

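Among 262 groups of 4 libraries examined for the named genes, 12 (4.58%) had a library far from the other 3 (the gap to its neighbour over the range of the group was above Dixon's 95% critical value), and chance gives about 1 in 20. With GLP-1 these were the high values of Fosb in replicate 2 (986.5 normalised counts), Neurod1 in replicate 3 (1156) and Wnt4 in replicate 3 (968.8), and the low values of Bmp2 in replicate 2 (274.1), Cacng2 in replicate 1 (45.55), Plk2 in replicate 4 (1057), Slc7a5 in replicate 3 (9126) and Zfp36 in replicate 2 (171.1). In Control they were Ins2 in replicate 3 (19400, high), Klf4 in replicate 2 (78.07, low), Nrarp in replicate 4 (28.96, high) and Zfp189 in replicate 3 (532.4, low).

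The response to GLP-1 differed between 1 h and 6 h for 19 of the 24 genes with the largest changes at 1 h (edgeR interaction, adjusted over all genes). Over all genes 3415 of 12976 (26.3%) differed. The 24 genes were chosen by the 1 h libraries that the interaction uses again, which favours a smaller change at 6 h. The log2 fold change at 6 h minus that at 1 h was -4.249 for Fosb, -3.599 for Nr4a3, -2.952 for Nr4a1, -2.893 for Nr4a2, -2.564 for Rgs2, -2.514 for Fosl2, -2.394 for Tiparp, -2.356 for Fos, -2.107 for Junb, -1.994 for Sik1 and -1.623 for Klf4, so that these 11 increases were smaller at 6 h. For 7 genes that had fallen it was above 0, with 0.9312 for Bbs10, 0.9281 for Six4, 0.8127 for Phlda1, 0.7144 for Arrdc3, 0.5671 for Txnip, 0.5534 for Exo5 and 0.4534 for Zfp189. LOC690918 fell further, with a difference of -0.3347.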

How the results depend on the processing

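For all genes at 1 h the count of 1513 was within 1.5 times under a pseudocount of 0.5 or 5, a minimum mean of 50, no filter, TMM factors, edgeR (1537) and each replicate left out (1149 to 1199). It was 837 with no replicate block, 568 with DESeq2 (426 higher, 142 lower), 905 in replicates 1 and 2 alone and 556 in replicates 3 and 4 alone, and 285 with a fold of at least 1.5. Scaling by library totals gave 1799 calls, moved the median of all genes to -0.03 and turned the split to 628 higher and 1171 lower (34.9% higher, beside 56.6%). After removal of each group's mean, replicates 1 and 2 stood apart from 3 and 4 on the first principal component (33.7% of the remaining variance). The difference between GLP-1 and Control is not part of that variance. GLP-1 against BMS-21 called 85 genes, 0 with no replicate block, 4 with DESeq2 and, with a replicate left out, 23 (without replicate 3) to 66, with 51 without replicate 1. At 6 h DESeq2 called 2841 genes beside 5331. Calls in the gene lists, 205 here, were 136 with DESeq2 and 131 in replicates 3 and 4 alone. Kdr reversed, at -0.0800, in replicates 3 and 4 alone. The causes were not tested. Of the other values of named genes at 1 h under these settings, 1797 kept direction and side of the threshold, 157 lost the call and 6 gained it. Genes near the filter of 10 are limited by depth, and 4 libraries in a group limit all precision.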

Other observations

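Zinc finger genes were frequent among decreases. Of 211 tested genes with the symbols Zfp, Zkscan or Zscan, mostly DNA-binding repressors of large families (the prefix also takes in RNA-binding Zfp36), 49 (23.2%) fell and 14 rose at 1 h, beside 5.16% of all genes tested that fell. Their log2 fold change was below 0 in 160 of 211, with a median of -0.11. Over all genes tested it was below 0 in 6448 of 12715, with a median of -0.0015. Zfp189 had 630, 646, 532 and 627 normalised counts in Control and 281, 287, 265 and 256 with GLP-1, and Zfp763 had 152, 165, 135 and 165 and then 93.0, 110, 83.9 and 84.8, both without overlap. For Zfp189 that was a condition of its naming among the largest decreases. Of all genes tested, 4.84% were lower without overlap. At 6 h 29 of 210 (13.8%) were lower, beside 20.7% of all genes tested then, and the median was 0.02. The group was chosen after the values were seen and carries no test. Without the block 31 of the 49 kept an adjusted p under 0.05, and 12 of the 211 were called lower with DESeq2, 21 in replicates 3 and 4 alone and 70 when scaled by library totals.

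The direction of calls among abundant genes depended on scaling. Of 2634 genes with a mean of 1000 to 10000 normalised counts 336 rose and 103 fell, whereas of 6924 genes with 100 to 1000 the counts were 397 and 452. Scaled by library totals, the counts were 208 higher and 270 lower in the first of these ranges and 311 and 762 in the other. Genes that rose held 14.5% of the reads in Control and 16.6% with GLP-1, and genes that fell 3.87% and 3.23%.

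Some other genes changed direction between times. Grm2, a glutamate receptor, had 91.0 to 127 normalised counts in Control and 135 to 234 with GLP-1 at 1 h (log2 0.63 ± 0.09) and was at -1.22 at 6 h (limma adjusted p = 2.13e-22), with an adjusted p at 1 h of 0.0431 without the block. Gpr6 was at 0.94 at 1 h and -0.34 at 6 h, and Arc at 0.69 and -0.53. These genes were named after their values were seen.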
